A study of Mus musculus with 12 samples.

Results

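Leukocyte adhesion molecules are the surface proteins that let blood cells slow down, stick and cross the vessel wall. Of this group, 8 genes were chosen by name: Icam1, Icam2, Vcam1 and Madcam1 of the immunoglobulin superfamily, the junction protein gene F11r, the selectin genes Sele and Selp, and Selplg, which encodes the leukocyte ligand PSGL-1. All spots that are not controls and carry one of these gene names were used. They hold 11 of the 55675 measured probes and 8 of the 34796 gene names on the array. Of the 8 genes, 6 gave enough signal to be tested, against 20026 gene names tested in all. Sele and Madcam1 did not.

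Aortic RNA came from 12 C57BL/6J mice on day 3 of treatment. Each mouse had 1 Agilent mouse array, and each of 4 groups held 3 mice. The methods describe male mice of 11 to 14 weeks and a tissue sample of 10 mm of aorta above the right renal artery. DMSO mice received only the vehicle dimethylsulfoxide, and rapamycin mice received 2 mg/kg/day of rapamycin, an inhibitor of the kinase mTOR, in that vehicle. BA+DMSO mice received 150 mg/kg/day of β-aminopropionitrile (BAPN), an inhibitor of the enzyme that crosslinks collagen and elastin, and angiotensin II (AngII, 1 µg/kg/min), a pressor hormone, with the vehicle. BA+rapamycin mice received the same BAPN and AngII challenge with rapamycin. All mice carried the vehicle and no mouse was a mutant. Treatment was systemic, so no cell type was singled out. Day 3 lies before dissection in this model. The DMSO group is titled "Pre" in the record, while its treatment label reads DMSO.

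Leukocytes leave the blood in steps. Selectins on activated endothelium and platelets catch PSGL-1 and other sugar-bearing ligands on leukocytes, so that the cells roll. Chemokines then switch leukocyte integrins to their binding form, and the integrins hold to ICAM-1, ICAM-2, VCAM-1 or MAdCAM-1 before the cells pass between endothelial cells, where F11r (JAM-A) is found. In cultured endothelium, inflammatory cytokines acting through NF-kB induce E-selectin, VCAM-1 and ICAM-1. P-selectin is stored ready-made in endothelium and platelets, and ICAM-2 is made constitutively. In arteries, smooth muscle cells can make VCAM-1 as well.

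Every value below is a log2 level unless another scale is named: the log2 processed signal of a probe minus the 75th percentile of its array, so that it is relative to the brightness of that array. Probes differ in their response, so levels were compared between groups and never between genes. The positions are those of the array files on the mouse build mm9. The Icam1 probe lies at chr9:20832290-20832349, the Icam2 probe at chr11:106238971-106239030, the F11r probe at chr1:173393848-173393907, the Sele probe at chr1:165987726-165987785 and the Selp probe at chr1:166079660-166079719. Vcam1 has 2 probes, probe 1 at chr3:115813216-115813275 and probe 2 at chr3:115828953-115829012, which start at bases 3060 and 842 of the transcript. Selplg also has 2 probes, probe 1 starting at base 1635 and probe 2 at base 1145, at chr5:114269206-114269265. For Selplg probe 1 the files list a genome match for 28 of its 60 bases. Madcam1 has probe 1 at chr10:79131212-79131271 and probe 2 at chr10:79129132-79129191. The Selp probe is spotted 10 times on the array, and the other member probes once. Where a gene has 2 probes, probe 1 is the brighter and stands for the gene.

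The results turn on the probes of Vcam1, Selp and Selplg, and bases 1 to 30 of each 60-base probe are shown so that the measured stretch can be recognised. No base is singled out, so all are in lower case.
Vcam1 probe 1: tatatttttataggcaaatggtaaagaggt
Vcam1 probe 2: aaccaagagtttggaagtaacctttactcc
Selp: atgcctgctttaagatctcctgggtcttcc
Selplg probe 1: catggtaacccggtaagagaggagcttttg
Selplg probe 2: attatcctcatcttggcttctctggccacc

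The arrays were not equally bright. The 75th percentile of processed signal, in intensity units, ran from 222 to 279.8 in DMSO, 257 to 337 in rapamycin, 74.6 to 109 in BA+rapamycin and 78.1 to 246 in BA+DMSO. The DMSO arrays and rapamycin replicate 1 lay on slide 1, and the other 8 arrays on slide 2, so the challenge in vehicle cannot be told apart from the slide except through the rapamycin group. Replicate correlations across probes, which are not independent, were lowest in BA+DMSO, at 0.949 to 0.974. No spot of a member was saturated. With 3 arrays against 3, an exact permutation test cannot go below a p of 0.1, so the tests are those of limma, fitted to all 27801 tested probes, with Benjamini-Hochberg adjustment in each comparison. A gene was called at an adjusted p under 0.05.

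The challenge in vehicle raised 3 of the 6 tested genes: Selplg, the leukocyte ligand of P-selectin, Vcam1, the endothelial and smooth muscle ligand of integrin α4β1, and Selp, P-selectin itself. Selplg rose 4.54-fold, Vcam1 2.67-fold and Selp 2.66-fold. Icam1, Icam2 and F11r did not pass, and no member fell. Across all genes, 21.4% were called in this comparison and 10.4% were called higher. For 4 of the 6 genes (Icam1, Vcam1, Selp and Selplg) every BA+DMSO array lay above every DMSO array, and 35.6% of all genes had groups without overlap in either direction. By the stricter rule of the study, a p under 0.01 and a change over 4-fold, Selplg alone passed, beside 2.83% of all genes. For that rule p was taken here as the unadjusted limma p. The median difference over the 6 genes was 1.16, beside -0.023 over all genes tested. With the slide as a fixed block, which leaves the comparison to the rapamycin arrays that lie on both slides, the differences were 1.99 for Selplg, 1.39 for Vcam1 and 1.80 for Selp (adjusted p = 0.316, 0.396 and 0.257), and 0 of the 6 members were called, beside 15 of all 27801 probes.

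**Figure D1:**
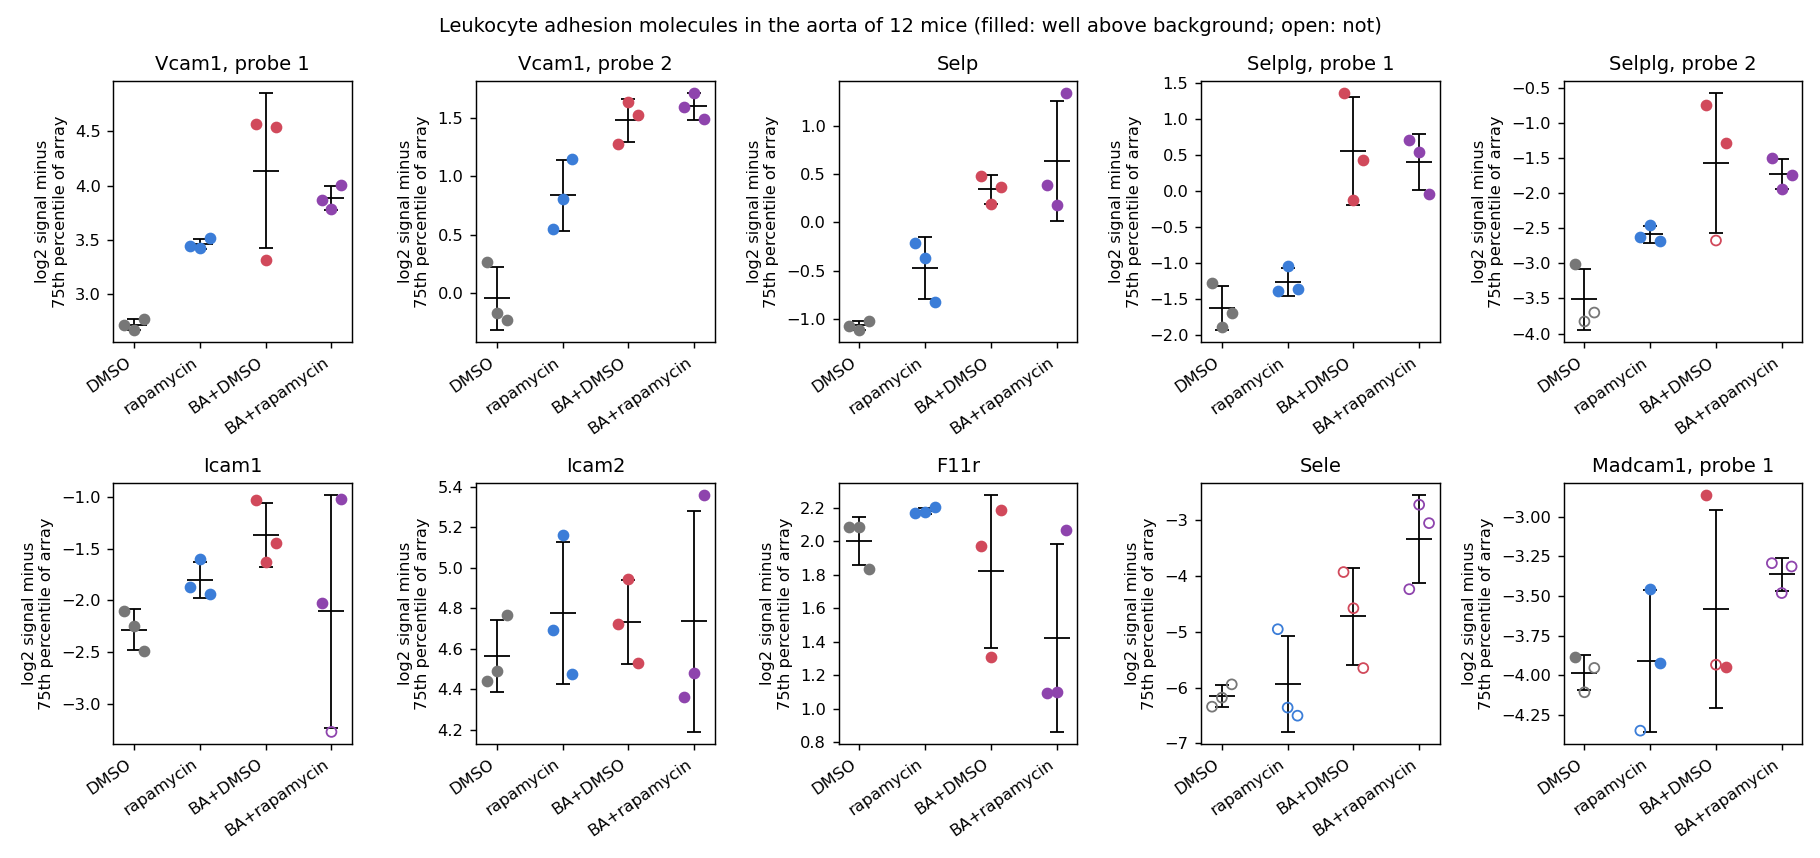
Log2 level, relative to the 75th percentile of the array (vertical axis), of each member probe but Madcam1 probe 2 on the 12 arrays, by group. Points are arrays (replicates 1 to 3 from left to right), filled where the signal was well above background, and bars give mean ± SD of 3 arrays. Vcam1, Selp and Selplg are higher in BA+DMSO than in DMSO on every array, while Icam2 levels overlap between all groups and no Sele point is filled.

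VCAM-1 binds integrin α4β1 on monocytes and lymphocytes. Vcam1 probe 1 stood at 2.72, 2.67 and 2.77 in DMSO and at 3.44, 3.43 and 3.52 in rapamycin. It stood at 4.57, 3.32 and 4.54 in BA+DMSO and at 3.87, 3.79 and 4.01 in BA+rapamycin. The DMSO arrays were the lowest 3 of the 12, and BA+DMSO replicate 2 stood apart from its group, below all 3 rapamycin arrays.

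The challenge difference of Vcam1 was 1.42 (95% interval 0.79 to 2.04, SE 0.28, limma adjusted p = 0.0071). Probe 2 stood at 0.27, -0.17 and -0.23 in DMSO and at 1.28, 1.63 and 1.52 in BA+DMSO, a difference of 1.52 (adjusted p = 0.00103). On probe 2, BA+DMSO replicate 2 was not low but the highest of its group. The 2 probes correlated at 0.78 over the 12 arrays, which share the groups. In unscaled intensity, probe 1 read 777 on BA+DMSO replicate 2, below the 1515 to 1847 of the DMSO arrays, so the rise on that array is relative to its brightness.

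Without challenge, Vcam1 lay higher in rapamycin than in DMSO on every array and both probes. Probe 2 stood at 0.55, 0.81 and 1.15 in rapamycin, above all DMSO arrays. The differences were 0.74 for probe 1 (unadjusted p = 0.0243) and 0.88 for probe 2 (unadjusted p = 0.00126), and neither passed after limma's adjustment (adjusted p = 1.00 and 0.554). In order of mean level, probe 1 ran DMSO, rapamycin, BA+rapamycin, BA+DMSO. Neighbours in that order did not overlap except BA+rapamycin and BA+DMSO.

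ICAM-1 binds the β2 integrins LFA-1 and Mac-1. Icam1 stood at -2.10, -2.25 and -2.49 in DMSO, -1.87, -1.60 and -1.94 in rapamycin, -1.03, -1.63 and -1.44 in BA+DMSO, and -2.02, -3.27 and -1.02 in BA+rapamycin. The BA+DMSO arrays lay above the DMSO arrays, and BA+rapamycin spanned the range of all other groups, with its replicate 2 not well above background. The challenge difference was 0.91 (95% interval -0.04 to 1.87, limma adjusted p = 0.16), so a rise of more than 3-fold and no rise at all both lie within the interval. Without BA+rapamycin replicate 2, which enters this comparison only through the shared spread, the same difference had an adjusted p of 0.0404. It was also called with normexp background correction (0.72, adjusted p = 0.00862), with the slide as a random block (0.93, adjusted p = 0.0474) and with array weights (1.19, adjusted p = 0.0275), and not in the other 22 of 26 alternatives. Of all 27801 probes, normexp called 6577, the random block 10270 and array weights 13427, against 5697 in the main fit. Without BA+rapamycin replicate 2 the number was 5466. The group means ran DMSO, BA+rapamycin, rapamycin, BA+DMSO, and all neighbours in that order overlapped.

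ICAM-2 is a ligand of LFA-1 on resting endothelium. Icam2 stood at 4.44, 4.49 and 4.77 in DMSO, 4.69, 5.16 and 4.48 in rapamycin, 4.72, 4.95 and 4.53 in BA+DMSO, and 4.36, 4.48 and 5.36 in BA+rapamycin. All groups overlapped. The challenge difference was 0.17 (95% interval -0.44 to 0.78, limma adjusted p = 0.699). The order of its group means has no neighbours that differ beyond their spread.

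MAdCAM-1, the ligand of integrin α4β7, is known from gut venules. Madcam1 probe 1 was well above background on 1 DMSO array, 2 rapamycin arrays, 2 BA+DMSO arrays and 0 BA+rapamycin arrays, and its levels ran from -4.35 to -2.86. Probe 2 was well above background on no array. The 2 probes correlated at 0.33. The gene was not tested, and no order of its groups was read from these values.

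F11r encodes JAM-A, a tight junction protein of endothelium, platelets and leukocytes that binds LFA-1. F11r stood at 2.09, 2.09 and 1.84 in DMSO, 2.17, 2.17 and 2.20 in rapamycin, 1.97, 1.31 and 2.19 in BA+DMSO, and 1.1, 1.1 and 2.07 in BA+rapamycin. The rapamycin arrays were tightly grouped, and both challenged groups were wide. The group means ran BA+rapamycin, BA+DMSO, DMSO, rapamycin, and of these neighbours only DMSO and rapamycin did not overlap. The challenge difference was -0.18 (95% interval -0.81 to 0.45, limma adjusted p = 0.686). Under rapamycin the difference of the challenge was -0.76 (95% interval -1.39 to -0.13, adjusted p = 0.0529), with no overlap between the groups. It was thus not called, and it passed in 7 of 28 alternatives. Without BA+rapamycin replicate 3 the value was -1.08 (adjusted p = 0.0133), and with array brightness as a covariate it was 0.10 (adjusted p = 0.9).

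P-selectin is held in the granules of endothelium and platelets and is moved to the surface on activation. Selp stood at -1.07, -1.12 and -1.02 in DMSO, -0.21, -0.37 and -0.83 in rapamycin, 0.49, 0.19 and 0.37 in BA+DMSO, and 0.38, 0.18 and 1.34 in BA+rapamycin. The 6 challenged arrays lay above all 6 others, and the rapamycin arrays lay between DMSO and the challenged groups. The challenge difference was 1.41 (95% interval 0.80 to 2.03, SE 0.28, limma adjusted p = 0.00671). Under rapamycin it was 1.11 (95% interval 0.49 to 1.72, adjusted p = 0.0111, 2.15-fold). In unscaled intensity, Selp read 88.8 on BA+DMSO replicate 2, below the 109 to 133 of DMSO. On that scale it read 190 to 222 in rapamycin and 84.8 to 274 in BA+rapamycin, which overlap. Its groups in order of mean level were DMSO, rapamycin, BA+DMSO and BA+rapamycin, and the last 2 of these overlapped.

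E-selectin is made by endothelium after cytokine stimulation. Sele was well above background on 0 of 12 arrays. Its processed intensity was 3.28 to 13.1 across all arrays. Its scaled values, -6.34 to -5.94 in DMSO and -4.23 to -2.72 in BA+rapamycin, come from spots not well above background on arrays of different brightness. No difference in Sele was detectable on these arrays.

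Sele and Selp lie close together on chromosome 1, and Selp rose while Sele was not detected, so the 250 bases before each annotated start are shown for both. They come from RefSeq on GRCm38.p6, plus strand, at chr1:164047984-164048233 for Sele and chr1:164115014-164115263 for Selp. Capitals mark matches to 3 motifs, read on both strands: TGANTCA (an AP-1 type site), TATAAA and TTCNNNGAA (a STAT type site). The NF-kB consensus, taken as GGGRNNYYCC (R is A or G, Y is C or T, N is any base), had no match in either window. Only exact matches were counted.
Sele: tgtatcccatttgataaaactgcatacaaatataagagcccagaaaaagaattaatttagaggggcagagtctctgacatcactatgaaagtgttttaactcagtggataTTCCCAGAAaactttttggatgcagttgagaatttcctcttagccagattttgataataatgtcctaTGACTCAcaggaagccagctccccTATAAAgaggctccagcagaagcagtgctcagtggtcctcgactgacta
Selp: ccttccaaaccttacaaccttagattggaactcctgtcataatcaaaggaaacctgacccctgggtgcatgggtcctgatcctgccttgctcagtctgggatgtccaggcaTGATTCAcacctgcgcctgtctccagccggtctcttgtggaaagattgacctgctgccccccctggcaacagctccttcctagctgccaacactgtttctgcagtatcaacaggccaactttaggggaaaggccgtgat

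Windows from 250 bases before to 50 after the start were found for 5 of the 8 genes, and those of Icam2, Vcam1 and Selplg are not shown. The TGANTCA motif was in the windows of Sele, Selp and F11r, against 7.81% of 32851 such windows in the genome table. TATAAA was in those of Sele and Icam1, against 13.6%, and TTCNNNGAA in those of Sele and Icam1, against 8.3%. Among the 5 genes the NF-kB consensus matched only in Madcam1, with 2 matches, against 8.46% of windows. Sites that depart from its letters were not counted, so a window without a match may still hold an NF-kB site. The matches are letters in a window of reference sequence and no measure of binding.

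PSGL-1, the product of Selplg, sits on nearly all leukocytes and is the main ligand of P-selectin. Selplg probe 1 stood at -1.28, -1.89 and -1.69 in DMSO, -1.39, -1.03 and -1.36 in rapamycin, 1.37, -0.12 and 0.44 in BA+DMSO, and 0.71, 0.55 and -0.03 in BA+rapamycin. All 6 challenged arrays lay above all 6 others. In unscaled intensity, probe 1 read 71.7 on BA+DMSO replicate 2, within the 68.7 to 115 of DMSO. It read 98.3 to 133 in rapamycin and 105 to 179 in BA+rapamycin, which overlap. The separation of the arrays is thus relative to their brightness. The challenge difference was 2.18 (95% interval 1.42 to 2.94, SE 0.35, limma adjusted p = 0.00227), and under rapamycin it was 1.67 (95% interval 0.91 to 2.43, adjusted p = 0.00474, 3.18-fold). Probe 2 gave 1.95 in vehicle (adjusted p = 0.00904) and 0.86 under rapamycin (adjusted p = 0.111). On that probe DMSO was well above background on 1 of 3 arrays. The probes correlated at 0.92 over the 12 arrays. The groups formed 2 levels on probe 1, with DMSO and rapamycin overlapping below and BA+rapamycin and BA+DMSO overlapping above.

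The tissue held several cell types, and in bulk RNA more cells of a type and more RNA per cell cannot be told apart. Markers of leukocytes moved with the challenge beside Selplg. Of 10 genes found in all leukocytes, 10 rose in vehicle, among them Cd52 by 3.04 and Coro1a by 2.67, and the median of the list was 2.15 beside the 2.18 of Selplg. Cd53, also called, was well above background on 1 of 3 DMSO and 2 of 3 BA+DMSO arrays. Under rapamycin 9 of the 10 rose, with a median of 2.04. Across all genes 10.4% were called higher in vehicle and 19.8% under rapamycin. The log2 sum of the list ran from 3.54 to 3.91 in DMSO, 3.80 to 4.13 in rapamycin, 5.82 to 5.97 in BA+rapamycin and 5.52 to 6.34 in BA+DMSO. Each list sum here is the log2 of the summed linear levels of its tested genes. All 10 genes were well above background on at least 1 array. Their part in the Selplg result was not tested.

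By kind of leukocyte, 11 of 11 macrophage and monocyte markers rose in vehicle (among them Cd68 by 2.63, and Ccr2, which was well above background on 1 of 3 DMSO arrays) and 9 of 11 under rapamycin. Their log2 sum ran from 4.77 to 5.70 in DMSO and from 6.45 to 7.73 in BA+DMSO. Of 5 tested neutrophil markers 1 rose in vehicle, Ly6g by 1.87, and 1 under rapamycin, Csf3r by 1.32, which is 20% in each against 21.4% and 42.7% of all genes. In vehicle 5 of the 5 differences were positive, with a median of 1.64, and under rapamycin 4, with a median of 0.25. Ngp and Cxcr2, which define neutrophils, were above background on no array. Of 6 tested lymphocyte markers 2 rose in vehicle, Cd3e by 0.92 and Cd4 by 0.89, and the same number under rapamycin, 33.3% in each. In vehicle Cd3d and Cd3g stood at -0.52 and 0.093 (limma adjusted p = 0.70 and 0.916). Cd79a and Cd79b stood at 0.23 and 1.33 (limma adjusted p = 0.723 and 0.0683). Cd3d and Cd3g were well above background on 0 BA+rapamycin arrays. Cd8a, Ncr1 and Klrb1c were above background on no array.

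Selp is made by endothelium and megakaryocytes, of whose markers 27.8% and 22.2% were called in vehicle, against 21.4% of all genes. Of 18 endothelial markers 5 rose in vehicle (Emcn by 1.40, Kdr by 1.28, Robo4 by 1.1), with a list median of 0.59, and none fell. Pecam1 and Cdh5, which define endothelium, stood at -0.28 (adjusted p = 0.492) and 0.58 (adjusted p = 0.368). Under rapamycin 5 rose and 2 fell, Tek by 0.99 and Pecam1 by 0.87, or 38.9% called against 42.7% of all genes. The endothelial sum ran from 7.34 to 7.59 in DMSO, 7.53 to 8.03 in rapamycin, 8.11 to 8.79 in BA+rapamycin and 7.80 to 8.34 in BA+DMSO. The median level over the 18 markers did not separate the groups in that way, at 1.63 to 1.84 in DMSO, 1.91 to 2.13 in rapamycin, 1.19 to 2.57 in BA+rapamycin and 1.85 to 2.32 in BA+DMSO, with BA+rapamycin replicate 2 below every DMSO array. The highest array by both measures, BA+rapamycin replicate 3, was also the highest for Selp, Icam1 and Icam2. Of 5 tested venous or lymphatic endothelial markers Pdpn rose by 1.95 and Lyve1 by 1.71, or 40% called against 21.4% of all genes. Mmrn1, Nr2f2 and Ephb4 stood at 1.05, -0.67 and -0.077 (limma adjusted p = 0.179, 0.103 and 0.853). Under rapamycin Pdpn rose by 2.08 and Nr2f2 fell by 1.48, or 40% against 42.7% of all genes. Prox1 and Flt4 were above background on no array.

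Of 9 tested platelet and megakaryocyte markers 2 rose in vehicle, among them Pf4 by 1.46. Under rapamycin 3 others passed, Gp9, Treml1 and Itga2b, or 33.3% against 42.7% of all genes. Of these, Gp9 was well above background on 0 rapamycin arrays and 1 BA+rapamycin array, and Itga2b on 1 of each, and both entered the test only through BA+DMSO. The platelet sum ran from 2.83 to 4.12 in DMSO, 3.42 to 3.69 in rapamycin, 3.60 to 3.98 in BA+rapamycin and 4.37 to 5.42 in BA+DMSO. Brighter probes weigh more in a sum, and this one followed Pf4, which stood at 0.049 under rapamycin (adjusted p = 0.924). The median level over the 9 markers ran from -3.15 to -1.18 in DMSO, -3.35 to -2.41 in rapamycin, -2.09 to -1.003 in BA+rapamycin and -1.74 to -0.355 in BA+DMSO, so that the BA+rapamycin arrays lay above the rapamycin arrays on this measure and overlapped with DMSO. The part of these cells in the Selp and Vcam1 results was not tested.

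**Figure D2:**
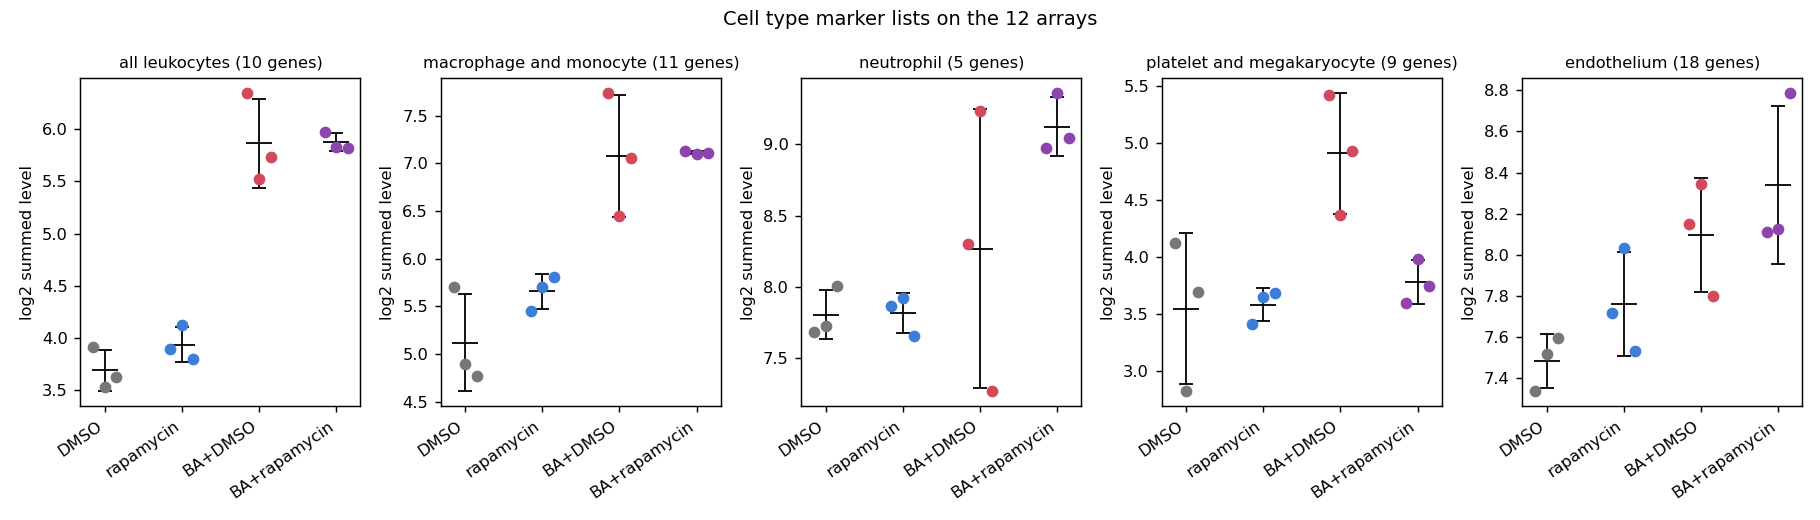
Log2 of the summed levels of 5 marker lists (vertical axis) on the 12 arrays, by group. Points are arrays, bars give mean ± SD of 3 arrays, and brighter probes weigh more in each sum. The neutrophil sum follows Csf3r, whose mean level in DMSO was 7.80 beside 7.81 for the sum. The leukocyte and macrophage sums of both challenged groups lie above those of the unchallenged groups, and the platelet sums of the BA+DMSO arrays lie above those of the other 9 arrays.

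Among the cells of the wall, 1 of 10 smooth muscle markers fell in vehicle, Lmod1 by 1.91, and 4 of 9 fibroblast markers rose, led by Thy1 at 2.16. These shares were 10% and 44.4%, against 21.4% of all genes. Under rapamycin, against 42.7%, 4 of 10 smooth muscle markers were called (Tagln rose by 1.05, Lmod1 fell by 1.89, Des by 1.79 and Myocd by 0.97), and 5 of 9 fibroblast markers rose. For tissue at the edge of the sample, of 8 mesothelial markers 6 were called higher in vehicle and 0 under rapamycin. Of those 6, only 1 was well above background on all 6 arrays compared, and Lrrn4 and Upk1b entered the test only through BA+DMSO, so no size is given. Of 8 tested adipocyte markers 1 was called in vehicle, or 12.5% against 21.4% of all genes. This was Ucp1, not well above background on any DMSO array and at least 5.88-fold higher in BA+DMSO, through which alone it entered the test. Under rapamycin 1 adipocyte marker was called, Cidea, which fell by 2.61, or 12.5% against 42.7% of all genes. The list went the other way, with 5 of 8 differences positive and a median of 1.11. The part of these cells in the members' values was not tested.

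The next comparison asked whether rapamycin changed the adhesion genes in challenged mice. Of the 6 tested genes 0 were called, against 0.305% of all genes (0.0649% higher and 0.24% lower). An unadjusted limma p under 0.05 was reached by 0 of them, against 4104 of all 20026 genes. The groups overlapped for all 6 genes, while 14.9% of all genes had no overlap. The differences were -0.74 for Icam1 (95% interval -1.70 to 0.22, adjusted p = 0.328) and -0.40 for F11r (-1.03 to 0.23, adjusted p = 0.397). They were 0.29 for Selp (-0.32 to 0.91, adjusted p = 0.514) and -0.15 for Selplg (-0.92 to 0.61, adjusted p = 0.787). For Icam2 the difference was 0.0021 (-0.61 to 0.61, adjusted p = 0.997). These intervals leave room for changes of about 0.6 to 1.7 in log2, so equal levels were not shown. With each array left out in turn, the Icam1 difference ran from -1.28 to -0.15 and that of F11r from -0.72 to -0.22. Neither was called in any of these fits.

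Vcam1 depended on a single array here. Its difference under challenge was -0.25 (95% interval -0.88 to 0.37, adjusted p = 0.578) on probe 1 and 0.12 on probe 2. Without BA+DMSO replicate 2, probe 1 was lower by 0.66 in BA+rapamycin (limma adjusted p = 0.00456). In that fit 11092 of all 27801 probes were called, against 78 with all arrays. With all arrays the sign on probe 2 was opposite and the groups overlapped. The same array is the dimmest of BA+DMSO.

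**Figure D3:**
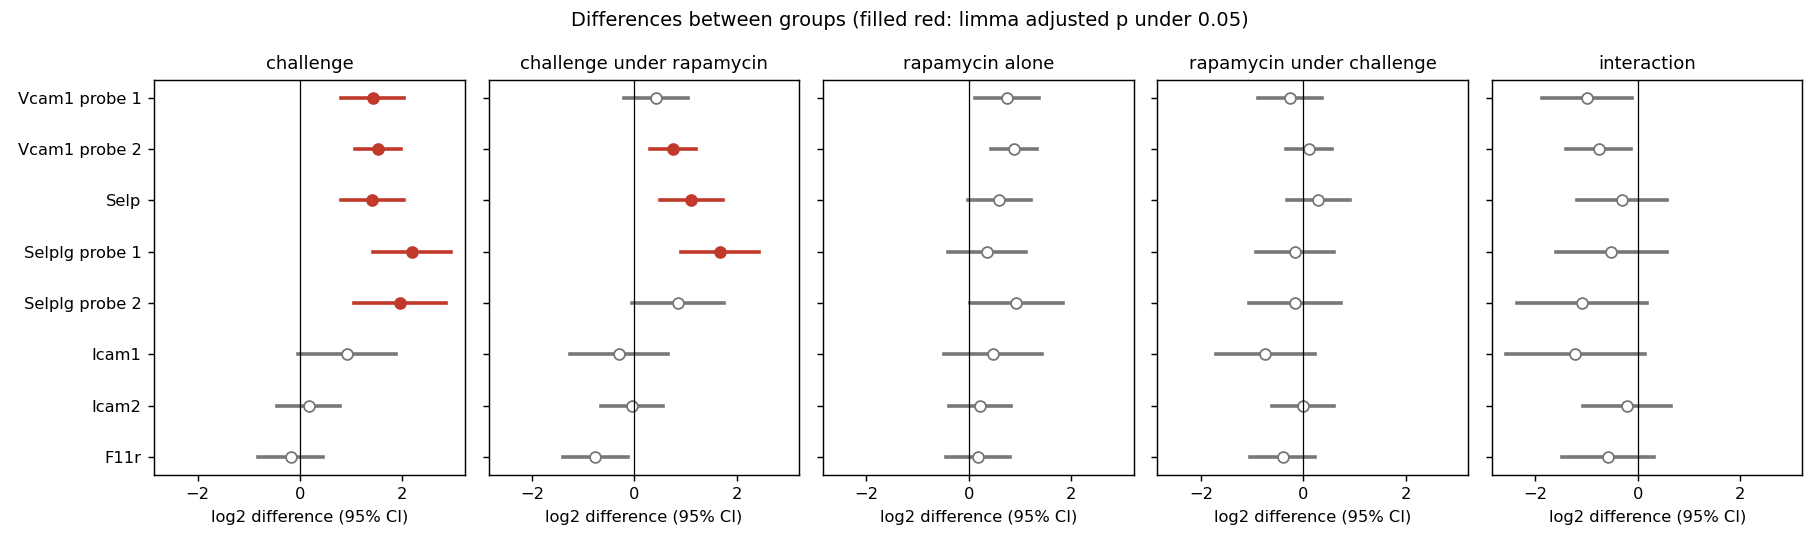
Log2 difference with its 95% interval (horizontal axis) for the 8 tested probes of 6 genes in 5 comparisons of group means. Filled red points have a limma adjusted p under 0.05, and open grey points do not. Red points appear for Vcam1, Selp and Selplg under challenge, and for Vcam1 probe 2, Selp and Selplg probe 1 in the challenge under rapamycin.

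Rapamycin in unchallenged mice called 0 of the 6 genes, against 0.00499% of all genes. An unadjusted limma p under 0.05 was found for 1 of the 6, Vcam1, and for 888 of all 20026 genes. All 6 differences were positive, with a median of 0.42. Over all genes tested 47.4% were positive, with a median of -0.014. Values did not overlap for 4 of the 6 genes (Icam1, Vcam1, F11r and Selp), against 22.4% of all genes. The differences were 0.48 for Icam1, 0.21 for Icam2, 0.18 for F11r, 0.60 for Selp and 0.36 for Selplg, each with an adjusted p of 1.00. Selplg probe 2 gave 0.93, with an unadjusted limma p of 0.0439 and no overlap. Of the rapamycin arrays 1 lay on the slide of the DMSO group and 2 on the other.

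The challenge under rapamycin called 2 of the 6 genes, Selplg and Selp, both higher, against 42.7% of all genes called, 19.8% higher and 22.9% lower. By the stricter rule of the study 0 of the 6 passed, against 5.43% of all genes. Non-overlap was seen for 4 of the 6, against 67.8% of all genes. Vcam1 probe 1 gave 0.43 (adjusted p = 0.238) and probe 2 gave 0.76 (adjusted p = 0.0145), with no overlap on either probe. Over 28 alternatives, among them the use of probe 2, the value of Vcam1 ran from 0.004 to 1.38 and was called in 5. Icam1 gave -0.30 (adjusted p = 0.593) and Icam2 -0.04 (adjusted p = 0.912). Without rapamycin replicate 3, Selp was at 0.93 with an adjusted p of 0.0521. Within slide 2 alone the values were 1.60 for Selplg (adjusted p = 0.0513) and 1.23 for Selp (adjusted p = 0.0618), and 0 of the 6 members were called, while 3268 of all 27801 probes were.

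The interaction, which is the challenge difference under rapamycin minus that in vehicle, was negative for all 6 genes, with a median of -0.55. Over all genes tested 46.8% were positive, with a median of -0.036. The interaction called 0 of the 6, against 0% of all genes. An unadjusted limma p under 0.05 was found for 1204 of all 20026 genes and for 1 member. That gene was Vcam1, at -0.99 (95% interval -1.87 to -0.11, unadjusted p = 0.031, adjusted p = 0.737). Vcam1 probe 2 gave -0.76 (unadjusted p = 0.0233, adjusted p = 0.737). Without BA+DMSO replicate 2 the probe 1 value was -1.40 (adjusted p = 0.0239), in a fit that called 3058 of all 27801 probes, against 0 with all arrays. The DMSO arrays, all low for Vcam1, enter both the challenge and the rapamycin comparison.

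**Figure D4:**
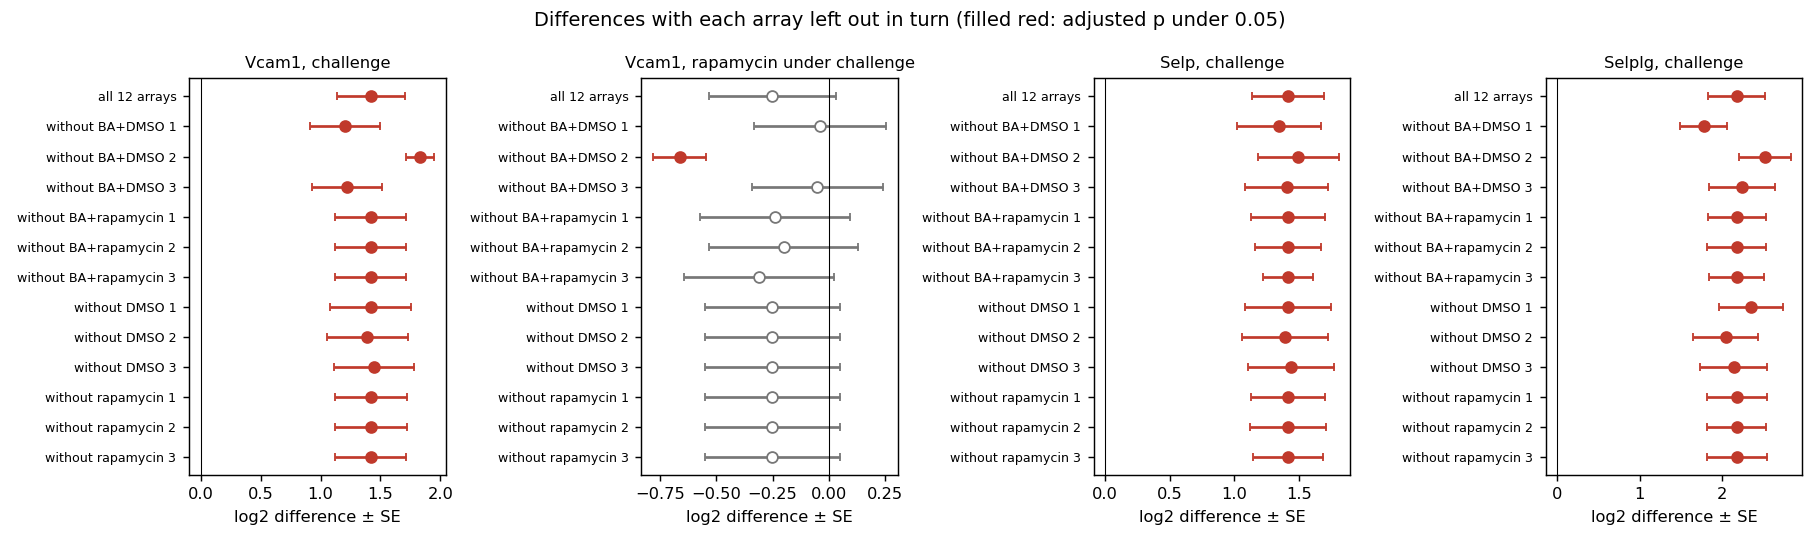
Log2 difference ± SE (horizontal axis) of Vcam1, Selp and Selplg with all 12 arrays and with each array left out in turn. Filled red points have a limma adjusted p under 0.05. The challenge differences are red in every row, and the Vcam1 difference of rapamycin under challenge is red only without BA+DMSO replicate 2.

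The wider adhesion pathway was followed in 7 lists. In each of them 0 genes were called for rapamycin under challenge, rapamycin alone or the interaction. The shares called for the challenge in vehicle, against 21.4% of all genes, were 57.1% of the leukocyte integrin subunits, 54.5% of integrin activation and adaptor genes, and 10 of 20 junction genes. They were 41.2% of NF-kB genes, 27.8% of selectin ligand genes, 23.5% of inducing ligands and receptors, and 2 of 4 shedding proteases. Under rapamycin, against 42.7% of all genes, the shares were 71.4% of the integrin subunits, 72.7% of activation and adaptor genes, 12 of 20 junction genes, 47.1% of NF-kB genes, 44.4% of selectin ligand genes, 35.3% of inducing ligands and receptors, and 2 of 4 shedding proteases. The junction counts include Cxadr in vehicle and Icam4 under rapamycin, each tested only through the group where it is high. List medians in vehicle ran from 0.14 for selectin ligand genes to 1.13 for integrin subunits, and under rapamycin from -0.00096 for activation and adaptor genes to 1.31 for integrin subunits. On the integrin list, 4 of 7 tested subunits rose with the challenge and none fell, with a median of 1.13. Itgb2, the β2 chain that pairs to bind ICAM-1, rose by 2.66 (limma adjusted p = 0.000267), Itgax by 2.01 and Itgb7, a partner for MAdCAM-1 binding, by 1.45. Itgb1, the β1 chain of integrin α4β1, rose by 0.67 (limma adjusted p = 0.0158). Itga4, the α4 chain that binds VCAM-1, stood at -0.45 (adjusted p = 0.318). Under rapamycin 5 of 7 rose, with Itgb7 at 2.20, Itgb2 at 1.96 and Itgam at 1.92. Itgb1 rose there by 1.31, which is the median of the list. Itgad, Itgae and Itgb2l were above background on no array.

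Of 11 tested genes for integrin activation and its adaptors, 3 rose and 3 fell. Fermt3, the kindlin of blood cells, well above background on 2 of 3 DMSO arrays, rose by 2.17, Fyb by 1.1 and Apbb1ip by 0.84. Rasgrp2, an activator of Rap1, fell by 1.17, Fermt2, the widespread kindlin, by 0.90 and Tln1, talin, by 0.64. Under rapamycin 5 rose, led by Fyb at 1.46, and Rasgrp2, Fermt2 and Tln1 were again the 3 that fell.

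Selectin ligands and the enzymes that make their sugars were called at shares close to those of all genes, 27.8% against 21.4% in vehicle and 44.4% against 42.7% under rapamycin. Of 18 tested genes other than Selplg, 4 rose and 1 fell with the challenge. Chst4, a sulfotransferase well above background on 2 of 3 DMSO arrays, rose by 2.83, Spn (CD43) by 1.93 and Cd44 by 1.33, while the sialyltransferase gene St3gal6 fell by 0.63. Under rapamycin 3 rose and 5 fell. Fut7, the fucosyltransferase that completes the selectin ligand, rose there by 1.15 (limma adjusted p = 0.035) and stood at 0.13 in vehicle (adjusted p = 0.841). Tpst1, a sulfotransferase that acts on PSGL-1, was called lower under rapamycin, where 1 of 3 BA+rapamycin arrays measured it well above background, and Spn and Cd44 rose by 1.73 and 1.61.

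Of 20 tested junction and transmigration genes, 5 rose and 5 fell with the challenge. Cxadr, not well above background on any DMSO array, was at least 3.04-fold higher in BA+DMSO. It entered the test only through BA+DMSO, the group where it is high, so its call is a description. Its leukocyte partner JAML (Amica1) rose by 2.07 and Jam2, a relative of F11r, by 1.68. Another relative, Jam3, fell by 1.22, Aoc3, which encodes vascular adhesion protein-1, by 1.5 and Mcam by 1.07. Under rapamycin 5 rose and 7 fell, again with Amica1 and Jam2 among the rises, at 1.84 and 1.31, and Aoc3 and Jam3 among the falls, at -1.80 and -1.57. Icam4 is also among the 7, well above background on 3 rapamycin arrays and 0 arrays of the other groups. It entered the test only through rapamycin, the group where it is high, so its call is a description.

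Upstream of the members, several cytokines that induce adhesion molecules were too dim to test. Of 26 ligands and receptors 17 were tested, 4 rose with the challenge and none fell. Il4ra rose by 2.15, Tnfrsf1b, TNF receptor 2, by 1.81 (well above background on 2 of 3 DMSO arrays) and Kdr by 1.28. Tnf was well above background on 1 of 12 arrays, and Il1a, Lta, Il4, Il13, Ifng and Osm on none. Il1b was well above background on 0 DMSO, 0 rapamycin, 2 BA+DMSO and 2 BA+rapamycin arrays, and was not tested. Under rapamycin 5 rose, with Il4ra at 2.93, and Il6st fell by 0.80.

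Of 17 genes of NF-kB feedback or regulation with the adhesion genes, 7 rose with the challenge and none fell. The chemokine gene Ccl2 rose by 5.17 (95% interval 3.60 to 6.75, limma adjusted p = 0.00118), Cxcl1 by 1.63 and Traf1 by 1.36. The feedback inhibitor genes Nfkbia and Tnfaip3 stood at 0.58 (adjusted p = 0.154) and -0.33 (adjusted p = 0.228), while Nfkbie, another inhibitor gene, rose by 1.19 (adjusted p = 0.00366). Under rapamycin 7 rose, led by Ccl2 at 4.88 and with Nfkbie at 1.54, and Tnfaip3 fell by 0.63. Of 4 tested proteases that shed adhesion molecules, Adam8 rose by 2.26 and Elane by 0.89 in vehicle, and both rose under rapamycin, by 2.75 and 0.99.

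**Figure D5:**
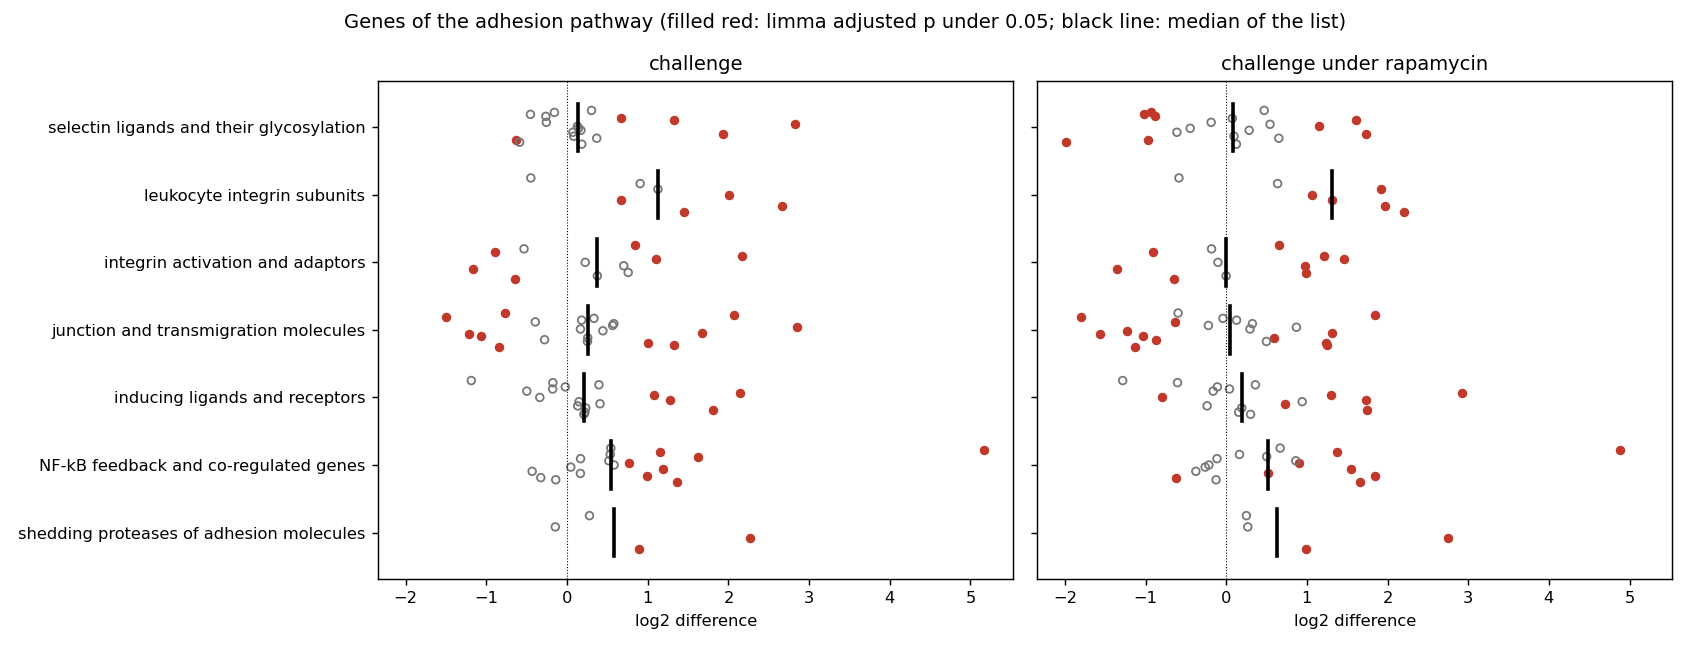
Log2 difference (horizontal axis) of each tested gene, members left out, in 7 lists of the adhesion pathway for the challenge in vehicle and under rapamycin. Filled red points have a limma adjusted p under 0.05, open points do not, and black lines are list medians. The point of Cxadr in vehicle is a fitted value, since its DMSO spots were not well above background. So is that of Icam4 under rapamycin, whose BA+rapamycin spots were not well above background. Leukocyte integrin subunits have the highest medians, 1.13 and 1.31, and junction genes have red points on both sides of 0.

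Lastly, the genes whose pattern over the 12 arrays was most like each member were listed, by Pearson's r among 12658 named genes. The arrays share groups and slides, so r is a description. Selplg was nearest to Nckap1l, Lcp1 and Tbxas1 (r = 0.987, 0.987 and 0.985), of which Lcp1 is on the leukocyte list. Selp was nearest to Tie1, an endothelial marker on the list above, Tmem88 and Plek2 (0.963, 0.961 and 0.956). Vcam1 was nearest to Gch1, Mcm7 and Ap2a2 (0.968, 0.963 and 0.957). For Icam1 the genes were Sox7, Gimap5 and Dpp4 (0.923, 0.901 and 0.898), for Icam2 Wnk4, Vmn1r48 and Kif26a (0.911, 0.903 and 0.896), and for F11r Fnbp1l, Inpp1 and Pak1 (0.952, 0.932 and 0.929).

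Over the 12 arrays Vcam1, Selp and Selplg, the 3 members called for the challenge, were the most alike by the same measure. They were called for a rise between the same groups, which by itself raises r over the 12 arrays. Vcam1 correlated with Selplg at 0.85 and with Selp at 0.81, and Selp with Selplg at 0.80. After the group means were removed, these values were 0.59, 0.30 and -0.15, so the likeness of Selp and Selplg lay between groups and not between mice of a group. Icam1 and Selp correlated at 0.51 over the arrays and at 0.82 within groups, and Icam2 and Selp at 0.45 and 0.75. F11r correlated with Selp at -0.28 over the arrays and at 0.73 within groups, and within groups also with Icam1 at 0.71 and with Vcam1 at 0.69, all above the values among Vcam1, Selp and Selplg there.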

How the data were processed

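Per the labels, 12 aortas in 4 treatment groups of 3 were hybridised to 1-colour Agilent arrays. Replicates were numbered in the order of deposition. Per the file headers, the scanner software was Feature Extraction 10.7.1.1 (the submitters' processing notes name 9.5.1.1), and the deposited processed signal is a linear intensity after background subtraction, with no step between arrays. Per the file headers, the spot mean and its local background are raw intensities, and the other columns used are flags for spots well above background, saturated or outlying. The deposited matrix of the authors holds intensities of unstated normalization. Each of its columns has a median of 17.1 and correlated at 0.9999 with a quantile normalization of the log2 processed signal, which settles scale and centring.

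From the deposited intensities, log2 processed signal was taken, outlier-flagged spots were removed, spots of a probe were averaged, and the 75th percentile of each array was subtracted. Of 55681 probes, 6 lacked a value on an array and were left out. A probe was tested if at least 0.5 of its spots were well above background on all 3 arrays of a group. All 12 arrays were fitted with a mean per group in limma 3.58.1 (R 4.3.3; files read by data.table, version 1.17.8), two-sided, with Benjamini-Hochberg adjustment within each of 5 comparisons at 0.05, and the code was tested on simulated data. The number of arrays limits the precision.

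The members and the 18 gene lists were chosen with earlier results of these data known. All members were named, and of each list the called genes with the largest changes, at most 3 in each direction and comparison. Other list genes were named after their values were seen. Some genes of the lists are not reported here. Alternatives covered background correction, scaling, filters, slide, title date, array weights, brightness, the groups fitted, the probe used, each array left out, and the rule of the study. That rule was a p under 0.01, taken here as unadjusted, and a change over 4-fold. Promoter windows came from RefSeq on GRCm38.p6, and no genome was used. Positions are from the array files, which do not state exons, so none are given.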

Additional observations from a re-analysis of the deposited data

How the results depend on the processing

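The challenge calls of Vcam1, Selp and Selplg were kept in all 12 fits that left out an array, with values of 1.20 to 1.83, 1.34 to 1.49 and 1.78 to 2.52. Members called for the challenge went from 3 to 0 with the slide as a fixed block, as given above, and to 1 by the study's rule, with 3 to 4 when an array was left out. Vcam1 had an adjusted p of 0.076 when only the groups compared were fitted. For the challenge under rapamycin the main count of 2 became 4 with normexp background correction, 0 within slide 2, 4 with array weights, 1 with brightness as a covariate and 0 by the study's rule, and 1 to 4 without an array (1 without rapamycin replicate 3, 4 without BA+DMSO replicate 2). Array weights gave 2 called members for rapamycin under challenge (Vcam1 at -0.58 and Selplg at -0.93, adjusted p = 0.0236 and 0.0493), 1 for rapamycin alone and 1 for the interaction (Vcam1 in both, at 0.74 and -1.32), where 7526, 674 and 1365 of all 27801 probes were called, against 78, 1 and 0 without weights, and leaving out an array gave 0 to 1, 0 to 0 and 0 to 1 (the 1 in each case without BA+DMSO replicate 2).

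Of 817 single-gene values, 29 changed sign, all of differences that were not called. For Icam2 these were the challenge with normexp (-0.092) and brightness (-0.024), rapamycin under challenge with normexp (-0.13), title date (-0.047), brightness (-0.11) and arrays left out (-0.31 to 0.19), and the challenge under rapamycin with quantile normalization (0.023), the percentile over detected probes (0.14), the deposited matrix (0.021), title date (0.094), array weights (0.087) and arrays left out (-0.35 to 0.15). For F11r they were the challenge with title date (0.029), brightness (0.31) and arrays left out (-0.36 to 0.075), and the challenge under rapamycin with brightness (0.10). For Vcam1 rapamycin under challenge turned with brightness (0.057) and probe 2 (0.12). For Icam1 the challenge under rapamycin turned with normexp (0.45, adjusted p = 0.0317), array weights (0.072), brightness (0.42) and arrays left out (-0.84 to 0.28). Under rapamycin in challenged mice, leaving out arrays moved Selp from -0.062 to 0.52 and Selplg from -0.50 to 0.25. The cause of these changes was not tested.

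The median of all tested probes was -0.04 for the challenge in vehicle and -0.08 for that under rapamycin. It became -0.10 and -0.18 with quantile normalization, -0.11 and -0.18 in the deposited matrix, 0.09 and 0.14 with normexp, 0.02 and 0.10 with the percentile over detected probes, and 0.43 and 0.85 over all 55675 probes without the filter. Icam1 and Madcam1 lie near background, and Sele lies within it. No paired analysis was possible because the replicate numbers follow the order of deposition, so they pair no mice. Matching by date was possible in part, since some titles of different groups share one. With the title date as a random block (correlation 0.50) 458 of 27801 probes were called for rapamycin under challenge, against 78, while called members stayed at 3, 0, 0, 2 and 0 in the 5 comparisons. The titles of BA+DMSO replicates 2 and 3 hold no date, and each of these arrays was its own level of the block.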
